A study of Mus musculus with 5 samples.

Results

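The proteasome genes of RAW264.7 cells were compared with and without introduced Cd137. The members were the genes with an expression value whose symbol begins with Psma, Psmb, Psmc, Psmd, Psme, Psmf or Psmg followed by a digit, 50 of the 16003 genes with a value. They fall into 3 immunoproteasome subunits, 14 subunits of the constitutive core, 17 subunits of the cap, 7 assembly factors, and 6 activators or inhibitors of the core. The remaining 3 stand outside these classes: Psma8, a testis form of an alpha subunit, Psmb11, the thymus form of a catalytic subunit, and Psmc3ip, which the rule takes by its name although its protein works in meiotic recombination and is no subunit. Expression is given in FPKM, a fragment count divided by transcript length and by the mapped total of the library, so levels of different genes are compared per length.

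The tested cells carried Renilla luciferase and mouse Cd137, and the control cells only Renilla luciferase; both are RAW264.7, an established mouse monocyte/macrophage line that can form osteoclast-like cells. CD137, the product of Tnfrsf9, belongs to the TNF receptor superfamily and is best known for co-stimulating T cells. The luciferase is thus shared by all groups; the sources used here do not give how either gene was introduced or whether a line is 1 clone. The series holds 3 CD137 and 2 control samples, of which CD137 replicates 2 and 3 and control replicate 2 have values here and the other 2 samples were not analysed here. Tnfrsf9 itself was at 364 and 370 FPKM in CD137 replicates 2 and 3, against 5.06 FPKM in the control. The total number of fragments per library is not known from these values, but solved from the deposited p-values it was 0.983 and 0.988 of the control's in CD137 replicates 2 and 3.

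The proteasome degrades proteins tagged with ubiquitin. Its core is a stack of outer alpha rings and inner beta rings, and the cap, a base of ATPases under a lid, recognises, unfolds and feeds in the substrate. In the constitutive core the cutting is done by the products of Psmb5, Psmb6 and Psmb7. Interferon and immune activation bring in Psmb8, Psmb9 and Psmb10 in their place, and this immunoproteasome trims many of the peptides that MHC class I molecules display. Macrophages, as antigen-presenting cells, express both kinds.

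The genes that exchange at the catalytic sites set the 2 kinds of core apart, so the promoters of 2 such pairs are shown. They are from RefSeq, build GRCm38.p6, the assembly also called mm10. Each runs from 250 bases before to 50 bases after the annotated start, 5′ to 3′ on the strand of the gene. Capitals mark letters that match the gamma-activated sequence TTCNNNGAA, the interferon-stimulated response element core (GAAA repeated after 2 bases of any kind), the antioxidant response element core TGACNNNGC or the CCAAT box CCAAT, searched on both strands; each of these windows held 1 match, so none overlapped. The Psmb8 window is chr17:34197945-34198244 on the plus strand, and the Psmb9 window is chr17:34187281-34187580 on the minus strand. The windows of their constitutive counterparts are chr14:54617946-54618245 on the minus strand for Psmb5 and chr11:70525107-70525406 on the plus strand for Psmb6.
Psmb8: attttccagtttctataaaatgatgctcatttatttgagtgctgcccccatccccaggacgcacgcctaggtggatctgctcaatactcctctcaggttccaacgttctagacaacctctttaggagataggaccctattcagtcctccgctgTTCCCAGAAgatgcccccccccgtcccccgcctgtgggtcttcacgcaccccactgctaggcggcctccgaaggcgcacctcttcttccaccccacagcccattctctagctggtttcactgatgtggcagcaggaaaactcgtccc
Psmb9: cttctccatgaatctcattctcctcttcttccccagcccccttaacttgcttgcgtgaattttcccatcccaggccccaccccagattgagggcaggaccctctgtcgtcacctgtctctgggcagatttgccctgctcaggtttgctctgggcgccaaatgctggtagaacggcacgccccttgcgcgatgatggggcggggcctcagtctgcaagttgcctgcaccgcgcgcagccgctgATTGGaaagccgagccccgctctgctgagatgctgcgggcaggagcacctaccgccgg
Psmb5: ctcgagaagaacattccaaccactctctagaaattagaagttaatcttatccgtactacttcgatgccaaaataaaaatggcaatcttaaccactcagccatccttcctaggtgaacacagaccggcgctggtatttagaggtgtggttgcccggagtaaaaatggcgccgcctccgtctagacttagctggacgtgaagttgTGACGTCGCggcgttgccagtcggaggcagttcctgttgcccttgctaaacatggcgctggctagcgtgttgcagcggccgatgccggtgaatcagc
Psmb6: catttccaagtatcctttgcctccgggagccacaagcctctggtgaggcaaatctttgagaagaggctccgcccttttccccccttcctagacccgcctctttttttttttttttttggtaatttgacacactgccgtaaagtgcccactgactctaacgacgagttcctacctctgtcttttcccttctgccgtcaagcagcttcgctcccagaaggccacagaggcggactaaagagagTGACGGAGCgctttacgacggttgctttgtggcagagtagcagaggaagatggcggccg

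The Psmb8 window held 1 gamma-activated sequence, whose first letter lies 97 bases before the start, and Psmb5 and Psmb6 each held 1 antioxidant response element core, at 47 and 9 bases before the start. The Psmb9 window held a CCAAT box on the opposite strand, 8 bases before the start. The Psmb10 window, which is not shown, held no match to any of these motifs. Promoters were found for 42 of the 50 members; Psma8, Psmb1, Psmb2, Psmb7, Psmc3, Psmd3, Psmd7 and Psmg2 had no entry. The antioxidant response element core was in 6 of these 42 promoters (14.3%), against 13.99% of the promoters of 27025 genes, and the CCAAT box in 15 (35.7%), against 41.1%. The gamma-activated sequence was in 3 (7.14%), against 9.55%, and the interferon-stimulated response element core in 5 (11.9%), against 3.99%; the 5 were Psmb3, Psmd4, Psmd9, Psme1 and Psmg4. A match of letters is a description of the window and not a site of binding.

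All 50 members had a value in every library, and 49 reached 1 FPKM in at least 1 library. Psmb11 was under that limit, at 0.25 and 0.21 FPKM in CD137 replicates 2 and 3 and 0.13 FPKM in the control. Summed over the 50 genes, the members made up 0.840% and 0.843% of the FPKM total in CD137 replicates 2 and 3, against 0.882% in the control. The constitutive core was the highest class, with summed levels of 2134 and 2143 FPKM in CD137 replicates 2 and 3 and 2228 FPKM in the control. The immunoproteasome subunits summed to 115 and 116 FPKM in the CD137 libraries and 159 FPKM in the control.

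**Figure D1:**
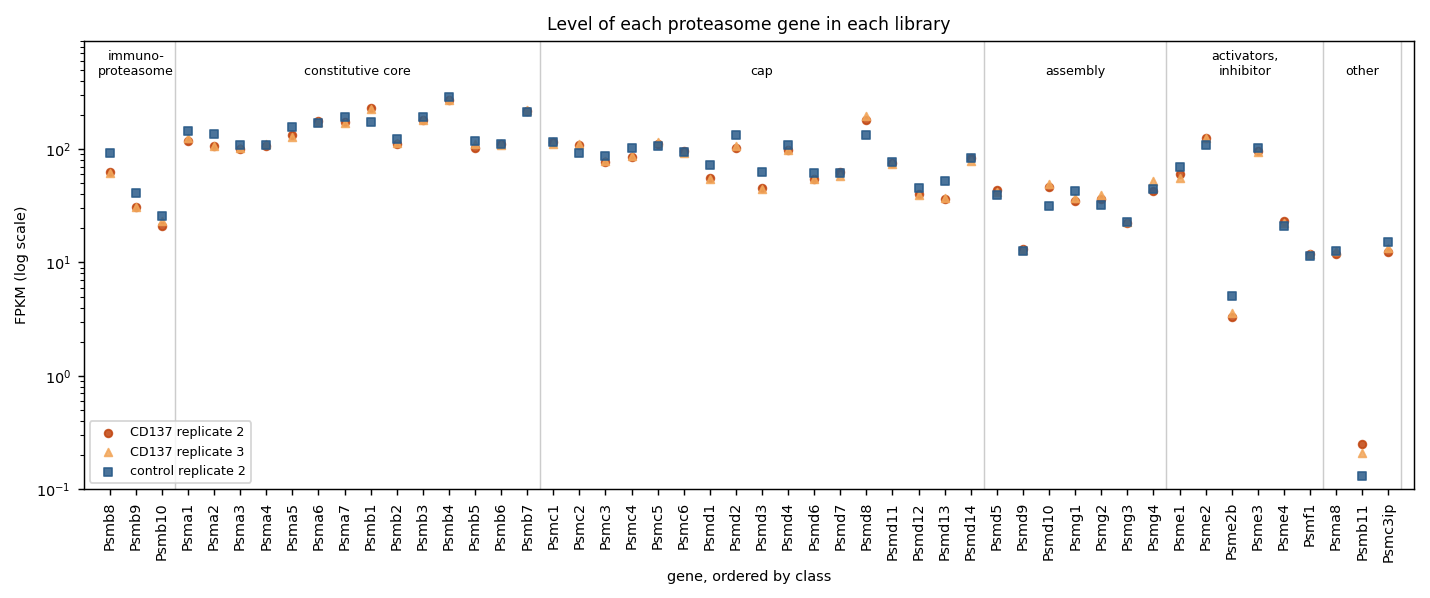
Level of each of the 50 proteasome genes in FPKM on a log scale (vertical axis) against the gene, ordered by class (horizontal axis); circles and triangles are CD137 replicates 2 and 3 and squares control replicate 2. The constitutive core lies above 100 FPKM, the immunoproteasome subunits lie lower and have the control above both CD137 libraries, and Psmb11 is the only gene under 1 FPKM.

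Subunits that stand in equal numbers in the particle did not have equal mRNA levels. In the alpha ring the highest gene was 1.74 and 1.70 times the lowest in CD137 replicates 2 and 3, and 1.78 times in the control. Psma3 was the lowest gene of that ring in every library, Psma6 the highest in both CD137 libraries and Psma7 the highest in the control. Among the 7 constitutive beta genes this ratio was 2.63 and 2.48 in the CD137 libraries and 2.58 in the control, with Psmb4, a non-catalytic subunit, the highest in each. The 6 ATPase genes of the base were the most even, at 1.49 and 1.47 in the CD137 libraries and 1.33 in the control. These ratios between genes also carry any error of the length model.

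Differences were tested with limma on log2(FPKM + 1) over the 10720 genes with at least 1 FPKM in some library. A call needed a Benjamini-Hochberg adjusted p under the threshold of 0.05. "Rose" and "fell" below mean past that threshold in CD137 cells relative to the control. Of the 49 expressed members 19 fell, 6 rose and 24 did not pass. Over all genes tested 18.2% fell and 24.4% rose, 42.6% in all, against 38.8% and 12.2% of these members, 51.02% in all. Among genes at 10 to 300 FPKM in the control, a range closer to the members' levels, 23.7% fell and 25.4% rose, 49.2% in all. The share of members called in either direction was thus near this background, with more of them lower and fewer higher. The split by direction was not tested. The median log2 difference was -0.08 over the members and 0.03 over all genes tested. The differences were small: on the log2(FPKM + 1) scale no member reached 1.5-fold in either direction, against 8.34% of all genes tested. The members ran from -0.56 (Psmb8) to 0.58 (Psmd10).

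The control is 1 library, so the spread comes from the 2 CD137 libraries and the control is assumed to vary as they do; nothing in the labels says that these libraries are separate cultures, and p-values then measure a spread that may be technical. In the limma fit of all 16003 genes, without the limit on low values, 0 members and 0 genes passed (smallest adjusted p = 0.0802), while 24 members and 5281 genes had an unadjusted p under 0.05; without limma's variance trend 10 members were called lower and 4 higher, where 35.5% of all genes were called. The 11 calls lost in that fit were Psma1, Psma7, Psmb2, Psmc3, Psmd4, Psmd6, Psmd12, Psme1, Psme2, Psmg1 and Psmg2, at adjusted p from 0.0537 to 0.125. Both CD137 libraries lay below the control for 29 of the 49 expressed members and above it for 13, against 40.2% and 49% of all genes tested. The CD137 libraries straddled the control for the other 7. Between the CD137 libraries the median gap of a member was 0.03 on the log2 scale, and the largest was 0.29, for Psmg4.

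Of the 3 catalytic genes of the immunoproteasome, Psmb8 and Psmb9 fell in CD137 cells and Psmb10 did not pass; none of the 3 catalytic genes of the constitutive core passed. Psmb8 (gene ID 16913, chr17:34198195-34201454, plus strand, mm10), which replaces Psmb5 at the chymotrypsin-like site, was at 62.8 and 61.9 FPKM in CD137 replicates 2 and 3, against 92.6 FPKM in the control. Both CD137 libraries lay far below the control and close to each other. Psmb8 fell to 0.673 of the control, a log2 fold change of -0.56 ± 0.04 (SE; limma adjusted p = 0.00141), the largest decrease among the members. Psmb9 (gene ID 16912, chr17:34182030-34187330, minus strand), which replaces Psmb6 at the caspase-like site, was at 31.0 and 30.8 FPKM in the CD137 libraries, against 40.8 FPKM in the control. It fell to 0.758 of the control (log2 fold change -0.39 ± 0.05, SE; limma adjusted p = 0.00375). Psmb10 (gene ID 19171, chr8:105935728-105938454, minus strand), which replaces Psmb7 at the trypsin-like site, was at 20.8 and 23 FPKM in the CD137 libraries, against 25.5 FPKM in the control. The CD137 values lay below the control but differed from each other, and Psmb10 did not pass (log2 fold change -0.21 ± 0.07, SE; limma adjusted p = 0.0743).

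Of the constitutive counterparts, Psmb5 was at 103 and 111 FPKM in CD137 replicates 2 and 3 and 117 FPKM in the control (log2 fold change -0.12 ± 0.06, SE; limma adjusted p = 0.133). Psmb6 was at 110.1 and 109 FPKM in the CD137 libraries and 110.1 FPKM in the control. Psmb7 was at 217 and 223 FPKM in the CD137 libraries and 213 FPKM in the control. For Psmb6 the groups overlapped, and for Psmb5 and Psmb7 the gap to the control was under the threshold. Within each library, the ratio of Psmb8 to Psmb5 was 0.610 and 0.557 in CD137 cells, against 0.794 in the control, and that of Psmb9 to Psmb6 was 0.282 in both CD137 libraries, against 0.370 in the control. The ratio of Psmb10 to Psmb7 was 0.0958 and 0.103 in CD137 cells, against 0.119 in the control. The immunoproteasome genes held 20.9% ± 0.25 (SD, n = 2) of the summed level of the 6 catalytic genes in CD137 cells, against 26.5% in the control. The ratios are a description with no test; an exact permutation test of 2 libraries against 1 cannot give a p below 0.333.

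**Figure D2:**
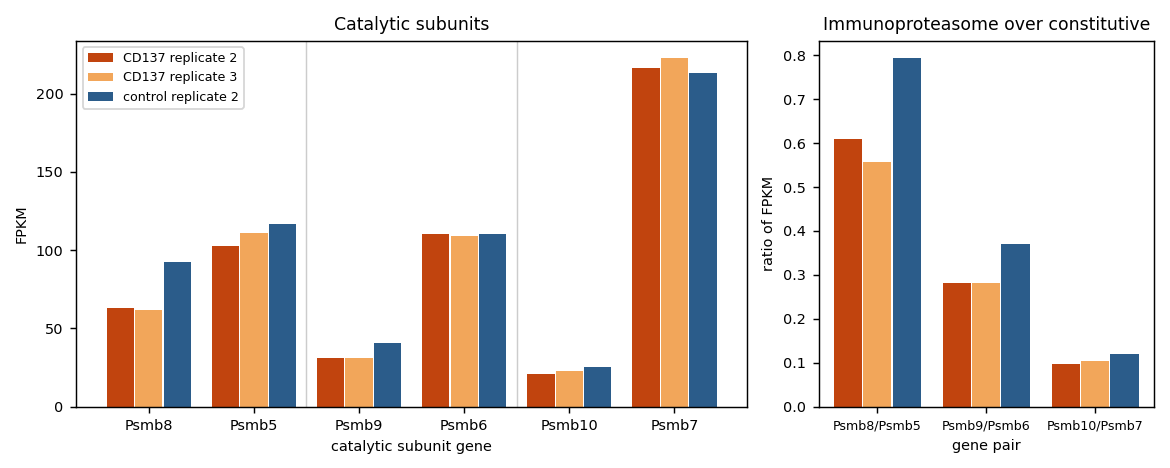
Left, FPKM of the 3 immunoproteasome catalytic genes, each beside its constitutive counterpart; right, the ratio of FPKM within each pair; bars are CD137 replicate 2, CD137 replicate 3 and control replicate 2, from left to right. The ratio is lower in both CD137 libraries than in the control for each pair, for example 0.282 in both against 0.370 for Psmb9 over Psmb6.

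In the whole constitutive core, 5 of 14 genes fell, 1 rose and 8 did not pass, with a median log2 difference of -0.09. The share called, 42.9%, was near the 42.6% of all genes tested. The alpha ring, which gates the entry to the chamber, accounted for 4 of the decreases. Psma2 was at 105 and 106 FPKM in CD137 replicates 2 and 3, against 136 FPKM in the control, and fell to 0.775 of it (log2 fold change -0.37 ± 0.04, SE; limma adjusted p = 0.00253). Psma5 fell to 0.831, Psma1 to 0.842 and Psma7 to 0.894 of the control. Psma3, Psma4 and Psma6 did not pass, with log2 fold changes of -0.09, 0.01 and 0.03. The alpha genes, whose products stand in the same ring, thus spanned log2 fold changes from -0.37 to 0.03.

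Among the non-catalytic beta subunits Psmb1 (gene ID 19170, chr17:15475721-15498276, minus strand) was the 1 core gene that rose. It was at 229 and 223 FPKM in CD137 replicates 2 and 3, against 174 FPKM in the control, 1.30-fold higher (log2 fold change 0.38 ± 0.04, SE; limma adjusted p = 0.00242). Psmb2 fell to 0.909 of the control, and Psmb3 and Psmb4, with log2 fold changes of -0.08 and -0.07, did not pass.

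The cap, the largest class, had 9 of 17 genes lower, 2 higher and 6 not past the threshold, and a median log2 difference of -0.15. The share called was 64.7%, against 42.6% of all genes tested and 49.2% of those at 10 to 300 FPKM in the control. The 3 non-ATPase genes of the base among the members were called lower, Psmd4 not without the variance trend (limma adjusted p = 0.105). Adrm1, a gene of the base outside the symbol rule, did not pass (log2 fold change -0.13, limma adjusted p = 0.0975). Psmd1, a large scaffold subunit, was at 55 and 53.9 FPKM in CD137 replicates 2 and 3, against 72.7 FPKM in the control, and fell to 0.749 of it (log2 fold change -0.41 ± 0.04, SE; limma adjusted p = 0.00268). Psmd2, the other scaffold, which docks ubiquitin shuttle proteins, fell to 0.784 and the ubiquitin receptor Psmd4 to 0.902 of the control. The ring of ATPases, which unfolds the substrate, went both ways. Psmc4 and Psmc3 fell to 0.854 and 0.894 of the control, Psmc3 not without the variance trend (limma adjusted p = 0.094). Psmc2 was at 109 and 110 FPKM in the CD137 libraries, against 92.7 FPKM in the control, and rose 1.18-fold (limma adjusted p = 0.00824). Psmc1, Psmc5 and Psmc6 did not pass, with log2 fold changes from -0.02 to 0.09.

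In the lid, which holds the deubiquitinating enzyme that removes the ubiquitin chain, 4 of 8 genes fell and 1 rose. The share called was 62.5%, against 42.6% of all genes tested and 49.2% of those at 10 to 300 FPKM in the control. Psmd13 was at 36.4 and 37.1 FPKM in CD137 replicates 2 and 3, against 51.9 FPKM in the control (log2 fold change -0.49 ± 0.04, SE; limma adjusted p = 0.00209). Psmd3 was at 44.9 and 44.2 FPKM in the CD137 libraries, against 62.8 FPKM in the control (log2 fold change -0.48 ± 0.04, SE; limma adjusted p = 0.00199). Psmd12 and Psmd6 fell to 0.866 and 0.879 of the control, and neither call held without the variance trend (limma adjusted p = 0.0615 and 0.0695). Psmd8, another structural subunit of the lid, went the opposite way, at 180 and 193 FPKM in the CD137 libraries and 132 FPKM in the control. It rose 1.41-fold (log2 fold change 0.49 ± 0.05, SE; limma adjusted p = 0.00315), and was also the 1 member called between the CD137 libraries themselves in the authors' deposited table, higher in replicate 3. Psmd14, the deubiquitinating enzyme, its partner Psmd7 and Psmd11 did not pass, with log2 fold changes from -0.04 to -0.02.

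**Figure D3:**
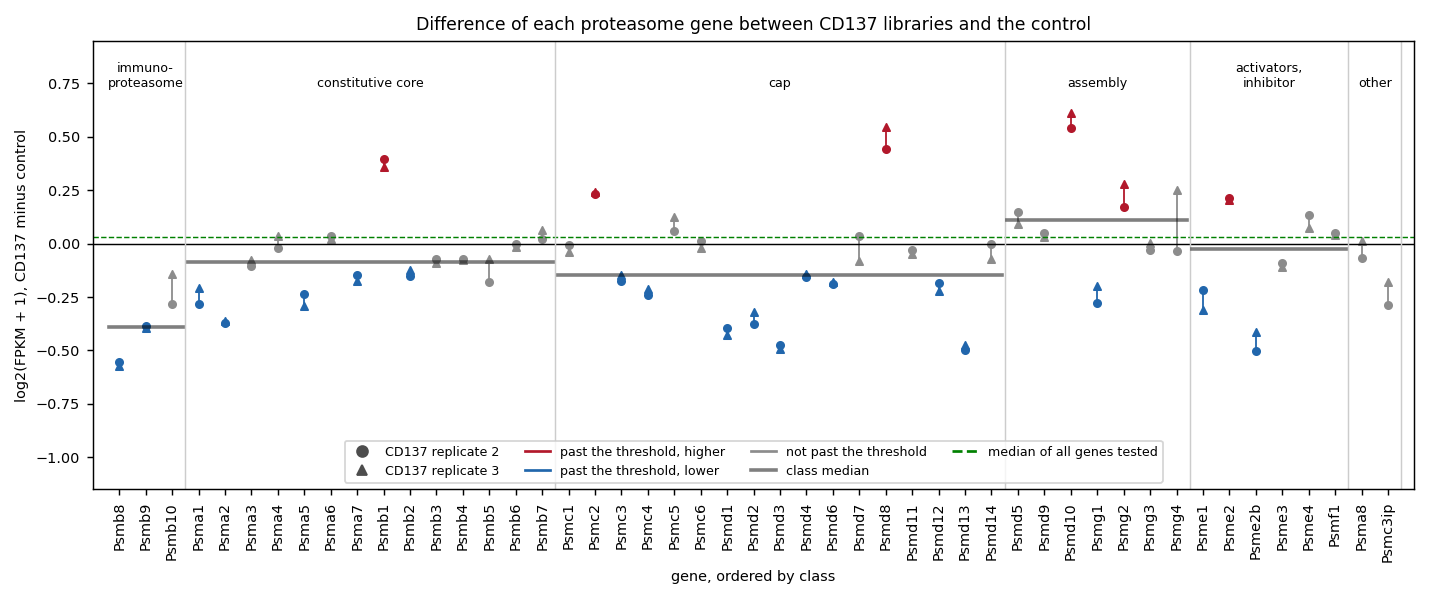
Difference in log2(FPKM + 1) between each CD137 library and the control (vertical axis) for the 49 expressed members, ordered by class (horizontal axis); circles and triangles are CD137 replicates 2 and 3, colours mark the limma call, thick bars are class medians and the dashed line is the median of all genes tested, 0.03. The medians are -0.39 for the immunoproteasome, -0.15 for the cap, -0.09 for the constitutive core, -0.03 for activators and inhibitor and 0.11 for assembly factors, and Psmb1, Psmd8 and Psmd10 stand above their classes.

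Assembly factors showed no common direction, with 2 of 7 genes higher, 1 lower and 4 not past the threshold. The share called, 42.9%, was near the 42.6% of all genes tested. The median log2 difference was 0.11, and was 0.0503 without CD137 replicate 3 and 0.0912 without CD137 replicate 2. Psmd10 (gene ID 53380, chrX:140948425-140956711, minus strand), known as gankyrin, a chaperone of the base that also binds the retinoblastoma protein, was at 46.4 and 48.8 FPKM in CD137 replicates 2 and 3, against 31.6 FPKM in the control. It had the largest increase among the members, 1.51-fold in FPKM (log2 fold change 0.58 ± 0.05, SE; limma adjusted p = 0.002). The other chaperones of the base, Psmd5 and Psmd9, had log2 fold changes of 0.12 and 0.04 and did not pass. Psmg1 and Psmg2 encode partners in 1 chaperone that guides the alpha ring. Psmg1 was at 35.1 and 37.2 FPKM in CD137 replicates 2 and 3, against 42.8 FPKM in the control, and fell to 0.845 of it (limma adjusted p = 0.0239). Psmg2 was at 36.2 and 39.0 FPKM in the CD137 libraries, against 32.0 FPKM in the control, and rose 1.18-fold (limma adjusted p = 0.0383). The partners were thus called in opposite directions, and neither call held without the variance trend (limma adjusted p = 0.0622 for Psmg1 and 0.0849 for Psmg2). Of the second pair of alpha-ring chaperones, Psmg3 was at 22.2 and 22.8 FPKM in the CD137 libraries and 22.7 FPKM in the control, and Psmg4 at 42.9 and 52.5 FPKM in the CD137 libraries and 43.9 FPKM in the control. In both, the groups overlapped.

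Of the activators and the inhibitor, 2 of 6 fell, 1 rose and 3 did not pass, with a median log2 difference of -0.03. The share called was 50%, against 42.6% of all genes tested. Psme1 and Psme2 encode the alpha and beta subunits of the interferon-inducible activator ring that docks on the core in place of the cap, and lie 5912 bases apart on chromosome 14. Psme1 was at 59.7 and 55.9 FPKM in CD137 replicates 2 and 3, against 69.6 FPKM in the control, and fell to 0.831 of it (limma adjusted p = 0.0173). Psme2 was at 125 and 124 FPKM in the CD137 libraries, against 108 FPKM in the control, and rose 1.16-fold (limma adjusted p = 0.011). Without the variance trend both calls were lost (limma adjusted p = 0.0555 for Psme1 and 0.0537 for Psme2). Psme2b, whose span of 1066 bases equals its longest transcript, was at 3.28 and 3.55 FPKM in the CD137 libraries, against 5.06 FPKM in the control, and fell (limma adjusted p = 0.0162); it resembles Psme2, and reads of such copies can be assigned to either. Psme3, the nuclear activator, Psme4, the single-chain activator, and Psmf1, an inhibitor of the core, had log2 fold changes of -0.10, 0.10 and 0.04 and did not pass.

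Psmb8 and Psmb9 lie beside the peptide transporter genes in the MHC region of chromosome 17. Tap1, which encodes a chain of that transporter, starts 226 bases from the start of Psmb9 on the opposite strand, and the promoter windows of the pair overlap by 275 bases. The gene across this shared promoter went the other way: Tap1 was at 24.9 and 27.3 FPKM in CD137 replicates 2 and 3, against 18.4 FPKM in the control, and rose 1.42-fold (log2 fold change 0.48 ± 0.07, SE; limma adjusted p = 0.00679), while Psmb9 fell to 0.758 of the control. Tap2 was at 24.4 and 25.98 FPKM in the CD137 libraries and 24.1 FPKM in the control and did not pass.

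On the list of 16 MHC class I pathway genes outside the proteasome, 8 rose, 4 fell and 4 did not pass. On this list 75% were called, against 42.6% of all genes tested. The 4 with the smallest p were Calr, B2m, H2-D1 and Pdia3. B2m, the light chain of class I, rose 1.62-fold, and the heavy chain gene H2-D1 had a log2 fold change of 0.58 (limma adjusted p = 0.00107). The next genes, with Tap1 and Tap2, are named for their place beside the immunoproteasome genes or their role and were chosen after their values were seen. Nlrc5, the transactivator of class I genes, was at 6.69 and 6.55 FPKM in the CD137 libraries, against 3.38 FPKM in the control, and Irf1, an inducer of immunoproteasome genes, at 8.79 and 8.54 FPKM, against 5.80 FPKM in the control; both rose (limma adjusted p = 0.00236 and 0.00555). Other interferon regulatory factors on the list went the opposite way: Irf8 was at 21.1 and 21.4 FPKM in the CD137 libraries, against 26.6 FPKM in the control, and Irf2 at 22.6 and 21.7 FPKM, against 26.3 FPKM in the control, and both fell (limma adjusted p = 0.00885 and 0.0228). The chaperones of class I folding Calr and Pdia3 fell to 0.526 and 0.701 of the control. Heavy chain genes are similar in sequence and reads may be assigned to either.

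**Figure D4:**
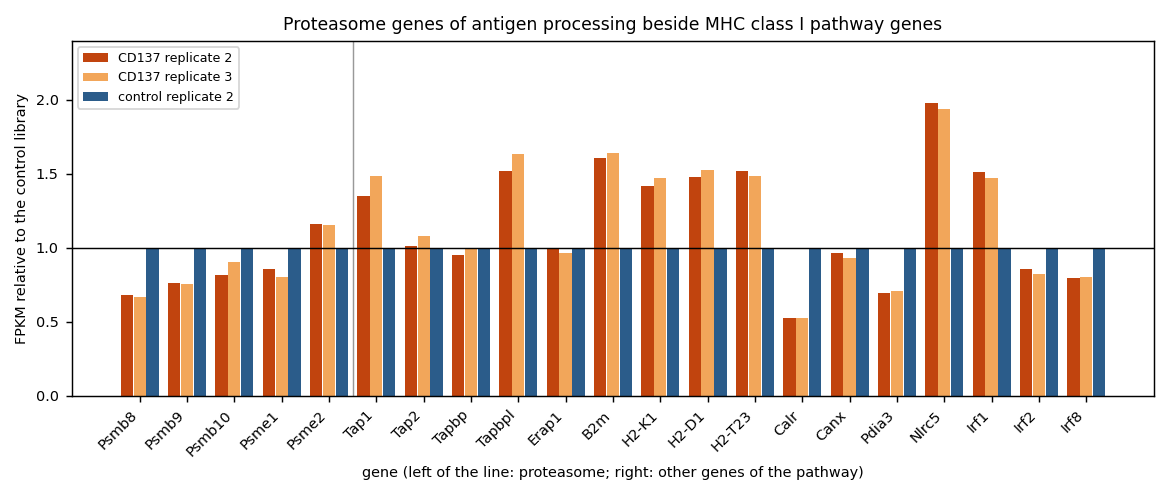
FPKM of each library divided by that of the control library (vertical axis, control at 1) for 5 proteasome genes of antigen processing, left of the vertical line, and the 16 genes of the MHC class I list, right of it; bars are CD137 replicate 2, CD137 replicate 3 and control replicate 2, from left to right. Psmb8, Psmb9, Psmb10 and Psme1 lie below the control and Psme2 above it; on the class I list Tap1, Tapbpl, B2m, the H2 genes, Nlrc5 and Irf1 lie well above the control and Calr, Pdia3, Irf2 and Irf8 below it.

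Proteins that work with the proteasome but fall outside the symbol rule were also mixed. Of 17 with a value, 3 rose, 5 fell and 9 did not pass, with a median log2 difference of -0.06. The share called, 47.1%, was near the 42.6% of all genes tested. Uchl5, a deubiquitinating enzyme of the cap, was at 45.1 and 43.6 FPKM in CD137 replicates 2 and 3, against 61.1 FPKM in the control, and fell (limma adjusted p = 0.0026). Pomp, the maturation chaperone of the core, was at 91.6 and 92.3 FPKM in the CD137 libraries, against 114 FPKM in the control, and fell (limma adjusted p = 0.00417). The zinc-finger genes Zfand5 and Zfand2a, whose proteins bind the particle, rose 1.24-fold each. Of 16 genes for ubiquitin supply, the VCP unfoldase and the NRF1 pathway 7 rose, 4 fell and 5 did not pass. The share called was 68.75%, against 42.6% of all genes tested. The ubiquitin gene Ubb and the ubiquitin-activating enzyme Uba1 fell to 0.750 of the control each. Nfe2l1, which encodes the factor that raises proteasome transcription when degradation is short, was at 176 and 175 FPKM in the CD137 libraries, against 138 FPKM in the control, and rose 1.27-fold (limma adjusted p = 0.00269), and Sel1l, a part of the ubiquitin ligase of the endoplasmic reticulum, rose 1.396-fold.

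Whole fragment counts behind the FPKM were recovered for 49 of the 50 members from the deposited p-values, and ranged from 60 (Psme2b) to 7193 (Psmd2). Psmb8 rested on 1330 and 1317 fragments in CD137 replicates 2 and 3, against 1995 in the control, a fold of 0.673 with a 95% exact counting interval of 0.635 to 0.714. Psmb9 rested on 434 and 428 fragments, against 575 in the control, with an interval of 0.684 to 0.847. For Psmb10, with 462 and 512 fragments against 575 in the control, the interval was 0.775 to 0.955. Of the constitutive counterparts, Psmb5 had an interval of 0.866 to 0.973, below 1 as well, Psmb6 of 0.943 to 1.051 and Psmb7 of 0.987 to 1.07. The intervals, which cover counting error only, lay below 1 for 26 members, above 1 for 9 and included 1 for 14; of those called by limma, the Psme2b interval, 0.512 to 0.891, was the widest. Between the CD137 libraries the interval left out 1 for 5 members, Psmb5, Psmd2, Psmd7, Psmd8 and Psmg4. Outside the members such intervals were made only for Tap1 and Tap2. These counts of intervals thus have no share over all genes beside them, and show no trait particular to the members. In the authors' deposited table, the Poisson comparison of 2 libraries gave an adjusted value under 0.05 to 32 of 50 members for CD137 replicate 2 and 28 of 50 for CD137 replicate 3 against the control, where 40.2% of all genes had one in each, and to 1 of 50 between the CD137 libraries, where 1.43% had one. Such a test compares libraries, not conditions. Its calls also depend on fragment counts, and the 40.2% covers genes at all levels. No share over genes at the members' levels was made for this test, so these counts show no trait particular to the members.

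**Figure D5:**
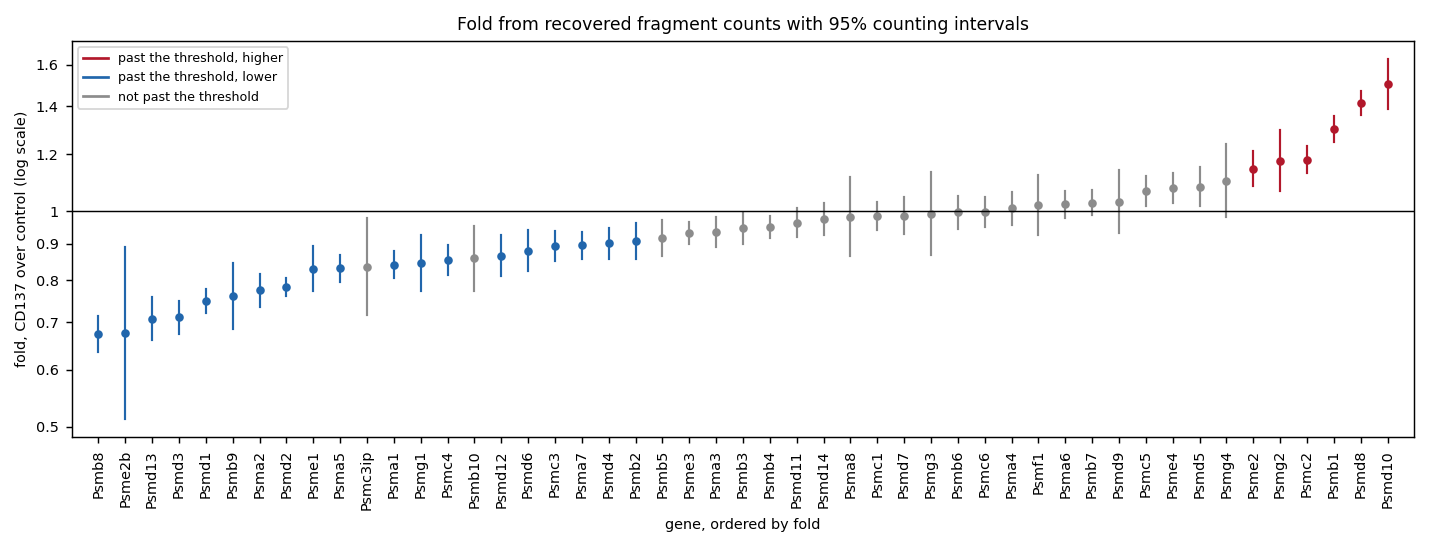
Fold of CD137 over control (vertical axis, log scale) for the 49 members with recovered fragment counts, ordered by fold (horizontal axis); points are the summed CD137 fragments over the control, scaled to depth, and bars are 95% exact counting intervals, coloured by the limma call. The intervals of Psmb8 (0.635 to 0.714) and Psmd10 (1.39 to 1.63) lie away from 1, and that of Psme2b is the widest.

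Markers of the labelled cell type were present: 7 of 8 macrophage markers reached 1 FPKM, and Mrc1 was at 0.05 FPKM or less. The 8 summed to 1772 and 1817 FPKM in CD137 replicates 2 and 3, against 2957 FPKM in the control; 3 of the 7 rose and 4 fell, Lyz2 to 646 and 669 FPKM in the CD137 libraries, against 1693 FPKM in the control. Their part in the proteasome results was not tested. Of 25 markers of T cells, B cells, fibroblasts, epithelial and erythroid cells 18 had a value and 5 reached 1 FPKM. The 18 summed to 15.3 and 8.67 FPKM in CD137 replicates 2 and 3, against 5.89 FPKM in the control. The highest was the T cell kinase gene Lck, at 4.59 and 4.28 FPKM in the CD137 libraries, against 3.16 FPKM in the control. Lck was the 1 marker of the 18 that was called (higher, limma adjusted p = 0.0256). The other T cell markers with a value, Cd3d, Cd4 and Cd8a, were at 0.34 FPKM or less. The B cell marker Cd79b was at 0.34 and 1.01 FPKM in CD137 replicates 2 and 3, against 0.14 FPKM in the control. Cd79a was at 0.69 and 0.91 FPKM, against 0.51 FPKM in the control, and the B cell factor Pax5 at 0.01 FPKM or less. The epithelial keratin Krt8 was at 2.6 FPKM in CD137 replicate 2, 0.66 FPKM in CD137 replicate 3 and 0.25 FPKM in the control. Krt8, Krt18 and Epcam were above the control in both CD137 libraries. Krt19 and Cdh1 were above it in CD137 replicate 2 only. In CD137 replicate 3 they were at 0.31 and 0.06 FPKM, against 0.36 and 0.07 FPKM in the control. Each of these epithelial markers was highest in CD137 replicate 2. The part of these other markers in the proteasome results was not tested either. Fewer cells of a type and less RNA per cell cannot be told apart in these bulk samples.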

How the data were processed

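RNA selected with oligo-dT beads from RAW264.7 cells was sequenced, per the labels' protocols. The deposited expression values are FPKM to 0.01, per the file headers. The submitters' processing notes name mm10, RSEM, HISAT2 and Bowtie2 but give no versions; strandedness is not given in the sources used here. Because FPKM divides by what the whole library mapped, a shift of abundant genes moves all others. The authors also deposited log2 ratios between pairs of libraries, p-values of a Poisson test of 2 libraries and adjusted values, which exceed 1 for some genes and were treated as a score, per the file headers and the values. Gene coordinates are those of the authors' table, and all 50 members overlapped the gene of the same ID in RefSeq's GRCm38.p6.

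Groups and replicate numbers come from the sample titles. limma 3.58.1 in R 4.3.3 (empirical Bayes with a variance trend) was run on log2(FPKM + 1), which understates changes of low genes, over the 10720 genes with at least 1 FPKM in some library, with 1 control and 2 CD137 libraries. The fit was tested on simulated data with the same spread in all libraries. That simulation could not test whether the control varies as the CD137 libraries do. Fragment counts (or reads; the table does not say which) and relative depths were solved from the p-values, with depths from 180 genes, and the recovery was tested on simulated data; scipy 1.17.1 gave the intervals, exact Clopper-Pearson at 95%. The members, gene lists, tests and rule for named genes were chosen with earlier results of these data known. 1 gene of the MHC class I list is not reported here and is left out of its counts. Full values are given for the catalytic genes, Psme1, Psme2 and Psmg1 to Psmg4, and otherwise for the smallest p-values in each role. Alternatives were other pseudocounts, filters, scalings and variance models, and each CD137 library left out.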

Additional observations from a re-analysis of the deposited data

How the results depend on the processing

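The counts of members called, 6 higher and 19 lower, stayed at 6 higher, with 19 to 22 lower, with a pseudocount of 0.1, a filter at 5 FPKM, libraries scaled to a common total or the median difference centred at 0. With no filter on low values 0 members and 0 genes were called, and without the variance trend 10 members were lower. Median log2 differences kept their sign throughout. They moved by more than the spread between the CD137 libraries to -0.40 (pseudocount 0.1), -0.41 (scaled) and -0.42 (centred) for the immunoproteasome. For the constitutive core they moved to -0.10 and -0.12 (scaled and centred), for the cap to -0.16 and -0.18, and for activators and inhibitor to -0.0373 and -0.0569. For assembly factors the median moved to 0.0784 (centred). Centring subtracts the median difference over all genes from every gene, so it shifts each class alike. The cause of the other moves was not tested. The log2 ratio of Psmb9 to Psmb6, CD137 minus control, was -0.39 with either a pseudocount of 0.1 or scaled libraries. Psmb10, which did not pass, passed when scaled (limma adjusted p = 0.0306) and when centred (limma adjusted p = 0.0337). Psmc3ip passed in both of these settings (limma adjusted p = 0.0248 in each) and with the filter at 5 FPKM (limma adjusted p = 0.0363). Psme3 passed when centred (limma adjusted p = 0.0415). Without the variance trend 11 members lost their call, at adjusted p from 0.0537 to 0.125. Leaving out 1 CD137 library gave medians from -0.39 to -0.38 for the immunoproteasome, -0.0871 to -0.0765 for the core, -0.16 to -0.14 for the cap, 0.0503 to 0.0912 for assembly factors and -0.03 to -0.02 for activators and inhibitor; counts of calls could not be made, since 1 library against 1 has no residual degrees of freedom. Without CD137 replicate 2 the log2 difference was -0.57 for Psmb8 and -0.39 for Psmb9, and without CD137 replicate 3 it was -0.55 and -0.38. No paired analysis was possible because the libraries used share only 1 replicate number between the groups. Depth limits the low members most, Psme2b with 60 to 94 fragments.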
